A study of Drosophila melanogaster with 4 samples.

Results

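Isolated narrow clusters of elongating RNA polymerase II were taken from the autosomal arms 2L, 2R, 3L and 3R of *Drosophila melanogaster* CME-W1-Cl.8+ (Clone 8) cells. A cluster is a stretch of the genome that the authors listed as having significant chromatin immunoprecipitation (ChIP) signal. It counted as isolated and narrow when it was under 4000 bp wide and lay at least 10000 bp from the clusters on its left and on its right. The first and last cluster of each arm were dropped. The rule was applied to the list that the authors gave for both replicates together (the combined list), and chose 554 of its 5826 clusters (9.51%). These made up 12.7% of the 4373 clusters on the 4 arms and 18.5% of the 2998 narrow ones. They covered 1.23 Mb, which was 6.61% of the clustered length on those arms. Widths and positions in the combined list chose the members, so these values describe the choice and carry no test.

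The antibody, ab5095, recognises the polymerase when serine 2 in the heptad repeats of its carboxy-terminal tail is phosphorylated. Clone 8 is an established line labelled male, and its source is the dorsal mesothoracic disc, which forms the wing, at the third larval instar. The labels name no treatment or altered gene. Cells were fixed in 1.8% formaldehyde for 10 min, and the chromatin was kept with antibody for 15 h, per the labels' protocols. The labels name 2 immunoprecipitations and 2 inputs, all 4 from the same line, and inputs have no values in this account. The labels do not tell whether replicates 1 and 2 are separate cultures, and their spread may be technical. Sequencing depth is unknown, because the cluster lists state no read numbers. Each cluster carries a score by the authors, taken as log2 enrichment over a reference that is not stated. A cluster's score in the combined list is called its combined value, and it is the authors' pooled value with no SD.

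RNA polymerase II begins transcription with an tail that lacks this mark and gains it as it moves into the gene. The kinases Cdk9, the catalytic part of P-TEFb, and Cdk12 add the mark, and the phosphatase Fcp1 removes it. The marked tail recruits Spt6, the histone methyltransferase Set2 and factors that cut and polyadenylate the transcript, and the mark is usually strongest toward the 3′ end of transcribed genes. Fly genes are compact and often lie close together, so that marked stretches of neighbouring genes can run into each other in a ChIP signal. No annotation of the genome release used by the files (FlyBase release 5) was used here, so no cluster is assigned to a gene, and the wing disc identity of the cells was not checked against marker genes.

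The members were narrow even within the limit of 4000 bp, and most carried weak to moderate enrichment. Their median width was 2131 bp, with quartiles of 1864.75 and 2516 bp and a range from 1001 to 3999 bp. Their median combined value was 0.61 (order-statistic interval 0.56 to 0.68, 95%, over clusters only), with quartiles of 0.30 and 1.28. The lowest stood at -0.11 and the highest at 3.45. On the 4 arms the highest cluster of any width reached 3.86. Of the 100 highest-scoring clusters on these arms 21 were members, and of the 437 highest 64 were members (14.6%). Of the 1000 highest 119 were members (11.9%), and of the 437 lowest 114 (26.1%). Their share among all clusters on the arms was 12.7%, so the lowest clusters held the most members for their number.

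For comparison, the other narrow clusters of the same arms were divided by the same gaps. Edge clusters, with a gap of at least 10000 bp on a single side, numbered 1183, and crowded clusters, with no such gap, numbered 1255. The remaining 6 narrow clusters were the first or last of an arm. Median widths were 2195 bp for edge and 2200 bp for crowded clusters, against the 2131 bp of the members. Median combined values were 0.55 (interval 0.51 to 0.59) for edge and 0.45 (0.42 to 0.47) for crowded clusters. Upper quartiles fell in the same order, at 1.28, 1.02 and 0.87, while the values below which 10% of a class lay ran the other way, at 0.13, 0.23 and 0.25. These classes come from the list that defined the members, and clusters of the same libraries are not replicates, so no test of the differences was made and none is called particular to the members.

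Width and enrichment rose together between 1800 and 2399 bp and not among wider members. The median combined value was 0.12 for the 39 members of 1800 to 1899 bp and 0.27 for the 45 of 1900 to 1999 bp. It was 0.47 for the 62 of 2000 to 2099 bp and 0.93 for the 57 of 2100 to 2199 bp. A median of 1.40 was found in the 48 of 2200 to 2299 bp and 1.75 in the 30 of 2300 to 2399 bp. The median was thus higher at each further 100 bp from 1800 to 2399 bp, after 0.16 for the 26 members of 1700 to 1799 bp. It fell to 0.89 for the 16 members of 2400 to 2499 bp and was 1.42 for the 16 of 2500 to 2599 bp. From 1700 to 2399 bp, a range set after the values were seen, the Spearman correlation of width with log2 enrichment was 0.896 over 307 members, which is 55.4% of them. Among the 156 members of 2400 bp or wider it was -0.003, with a median log2 enrichment of 1.11 and quartiles of 0.70 and 1.82.

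The same steep stretch appeared when the rule was applied to each replicate list alone. Between 1700 and 2399 bp the correlation was 0.887 over 355 isolated clusters of replicate 1 and 0.879 over 304 of replicate 2. In these lists the median value at 1900 to 1999 bp was 0.43 in replicate 1 and 0.38 in replicate 2. At 2300 to 2399 bp it was 1.91 and 1.59. Crowded clusters had a lower correlation in each list. From 1700 to 2399 bp it was 0.762 for combined values and 0.781 and 0.787 in the replicates, and their median combined value went from 0.31 at 1900 to 1999 bp to 0.76 at 2300 to 2399 bp. Edge clusters lay between, at 0.801, 0.822 and 0.795. These are correlations across clusters that share a library, so no p is given. The range was set after values were seen, and the combined list was made from these same libraries. The replicate lists are therefore no independent check of the steep stretch.

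**Figure D1:**
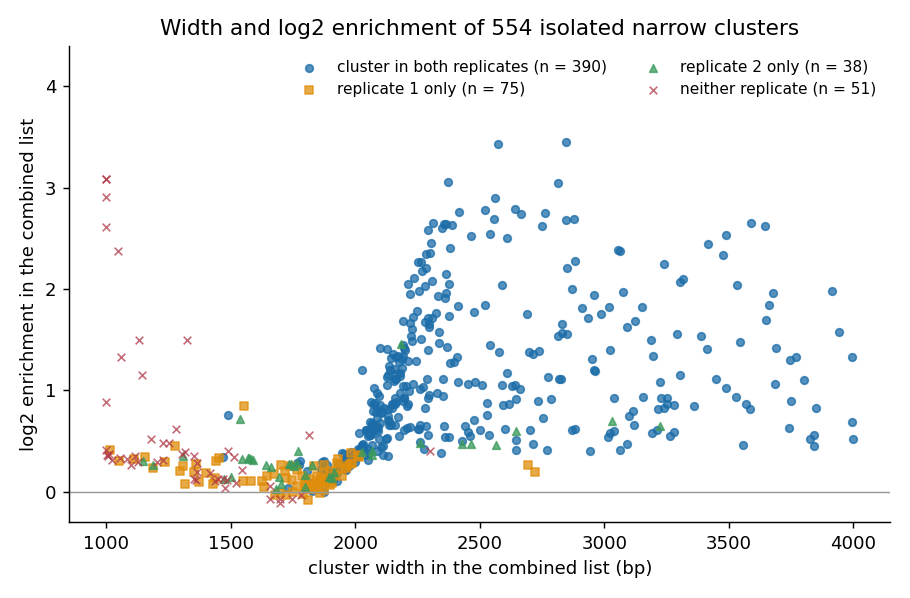
Width in bp on the horizontal axis against log2 enrichment in the combined list on the vertical axis for the 554 isolated narrow clusters, with 1 point for each cluster and the symbol giving the replicates in which it overlapped a cluster. Log2 enrichment rises steeply between about 1900 and 2399 bp and is widely spread above that, and nearly all points found in neither replicate lie at the left, the highest of them at 1001 bp.

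Most members were found again in the replicate lists. Of the 554, 390 (70.4%, exact 95% binomial interval 66.4 to 74.2%) overlapped a cluster in each replicate by 1 bp or more, against 73.8% of all combined clusters, 76.3% of those on the 4 arms and 65.8% of the narrow ones there. Replicate 1 alone had a cluster at 75 members (13.5%, 10.8 to 16.7%), where the background was 6.32% of all combined and 8.77% of narrow autosomal clusters. Replicate 2 alone had one at 38 (6.86%, 4.90 to 9.29%), with backgrounds of 7.64% and 10.4%. The remaining 51 members (9.21%, 6.93 to 11.9%) met no cluster in either list, against 12.2% and 15.0%. Overlap with both lists is therefore near the background. In all, 83.9% of members were present in replicate 1 and 77.3% in replicate 2 (80.6 ± 4.72%, SD, n = 2). Binomial intervals cover counting error over clusters only, and the combined list was made from the same libraries, so this overlap is not independent of the choice of members.

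Single-replicate members leaned to replicate 1, and crowded clusters to replicate 2. Replicate 1 alone held 75 members and replicate 2 alone 38. Among crowded clusters the numbers were 100 (7.97%) and 170 (13.5%), and among edge clusters 86 (7.27%) and 104 (8.79%). With only 2 libraries this difference was not tested.

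Presence in the replicates followed width and score. Members found in both replicates had medians of 2270 bp in width and 0.89 in combined value. For members found in replicate 1 alone the medians were 1791 bp and 0.16, and for those in replicate 2 alone 1761 bp and 0.31. The replicate clusters at these places were weak as well, with a median of 0.35 in replicate 1 and 0.44 in replicate 2. By width, 203 of the 213 members from 2000 to 2499 bp were in both replicates (95.3%), and 51 of the 137 from 1500 to 1999 bp (37.2%). Edge clusters of the same widths were in both replicates at 94.1% and 34.2%, close to the members, and crowded clusters at 82.7% and 22.0%. At equal combined value the classes kept no single order. From 0.5 to 1, 93.1% of members were in both, against 97.9% of edge and 95.8% of crowded clusters. Members were also lowest from 1 to 1.5 and at 2 or more, where the 5 members not in both were all under 1301 bp wide. From 1.5 to 2 they were not lowest, with all 44 in both, against 93.3% of edge and 100% of crowded clusters. From 0.25 to 0.5 members were highest, at 52.5% against 46.9% and 31.3%. Of the 35 members under 1301 bp, the width of the narrowest cluster in either replicate list, none was in both (0 of 35, exact interval up to 10.0%), 25 were in neither, and the rest were in 1 replicate. Over all combined clusters of such widths, 0 of 405 were in both and 355 in neither, so the absence is not particular to members. The share in neither was 71.4% for members, 89.1% for edge and 89.7% for crowded clusters.

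**Figure D2:**
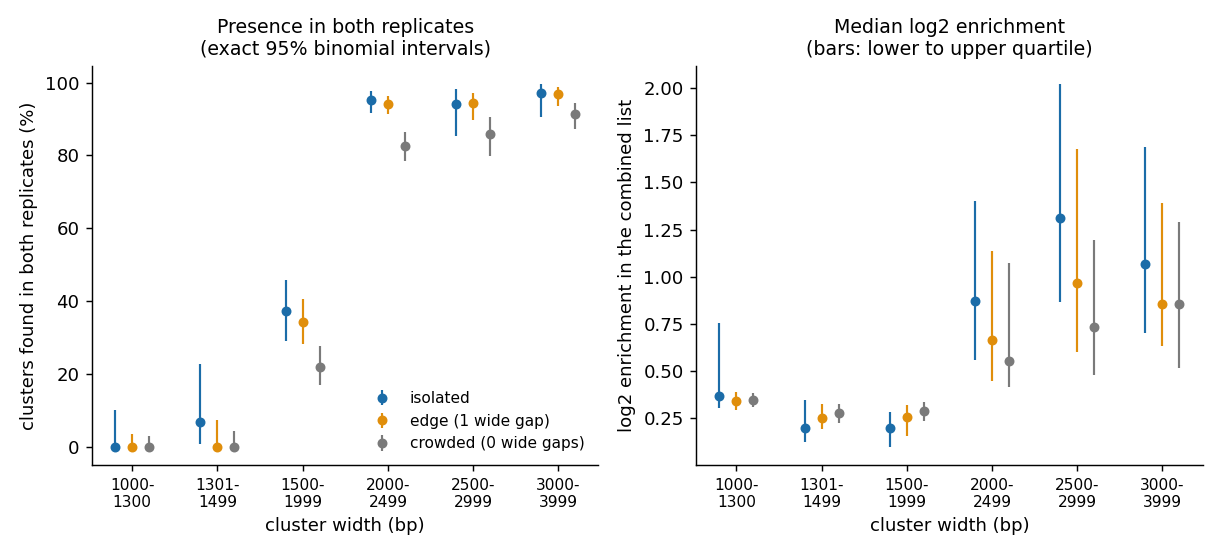
Left, the percent of clusters found in both replicates by width in bp, with exact 95% binomial intervals. Right, the median log2 enrichment in the combined list by width, with bars from the lower to the upper quartile, for isolated, edge and crowded narrow clusters on the 4 arms. From 2000 to 2499 bp the medians are 0.87 for isolated, 0.66 for edge and 0.55 for crowded clusters, whereas from 1500 to 1999 bp the isolated clusters are lowest, at 0.20 against 0.26 and 0.29.

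Within the same width range the members of 2000 bp or more had higher median combined values than crowded clusters, and the order was the same in each replicate. In steps of 100 bp from 2000 to 2599 bp the combined medians kept this order. The difference was small at 2400 to 2499 bp, with 0.89 for members and 0.86 for crowded clusters, and edge clusters were higher there, at 0.95. From 2500 to 2999 bp the combined medians were 1.31 for 67 members, 0.97 for 176 edge clusters and 0.74 for 177 crowded clusters. The replicate clusters at those places had medians of 1.37 and 1.28 in replicates 1 and 2 for members (1.32 ± 0.06, SD, n = 2). For crowded clusters they were 0.91 and 0.81 (0.86 ± 0.08). From 3000 to 3999 bp the replicate means were 1.12 ± 0.05 for members and 0.92 ± 0.08 for crowded clusters. From 1500 to 1999 bp the order was turned, with replicate means of 0.34 ± 0.02 for members and 0.40 ± 0.04 for crowded clusters. These cover only places where the replicate held a cluster. In replicates 1 and 2 that was 104 and 74 of 137 members, and 111 and 130 of 246 crowded clusters. In the ranges of 1500 to 1999, 2500 to 2999 and 3000 to 3999 bp both replicates lay on the same side. Below 1500 bp the combined and replicate values did not give one order. From 1301 to 1499 bp the combined medians were 0.20 for members and 0.28 for crowded clusters, but the replicate means were 0.42 ± 0.02 and 0.37 ± 0.05. From 1000 to 1300 bp the combined medians were 0.37 and 0.35, and the replicate means, over 2 to 10 clusters a list, 0.37 ± 0.04 and 0.467 ± 0.005. With 2 replicates no test was made.

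The highest members found in both replicates were strong clusters standing alone. The first lay on 3L at 20941438 to 20944284 (all positions are those of FlyBase release 5). It was 2847 bp wide and had a combined value of 3.45, with 3.69 in replicate 1 and 3.24 in replicate 2. The nearest clusters lay 105815 bp to its left and 55687 bp to its right and had combined values of 0.66 and 2.05, so it stood above both neighbours. The second lay on 2L at 14408402 to 14410973, and had a combined value of 3.44, between the 3.73 of replicate 1 and the 3.16 of replicate 2. Its width of 2572 bp was 2556 and 2539 bp in the replicates. The third lay on 2L at 21898255 to 21900626, next to a gap of 102221 bp on its right, and its combined value of 3.06 lay between 3.41 in replicate 1 and 2.70 in replicate 2. The next, on 2R at 11235945 to 11238756, was also the highest of that arm, with a combined value of 3.05. Its replicate values of 3.62 and 2.56 differed by 1.06, the most among the 390 members in both replicates.

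The other 6 of the 10 highest had combined values between 2.74 and 2.90. The member on 3R at 19684013 to 19686573 (2.90) had replicate values of 3.03 and 2.80. The one on 3R at 16738856 to 16741374 was nearly equal in the replicates, at 2.78 and 2.79. Of the 4 others, 3 lay on 2L, where the spans were 2129316 to 2131957 (2.79), 16586877 to 16589639 (2.75) and 12617043 to 12619708 (2.74). The last was on 2R from 18157103 to 18159519 (2.76). Of the 10, 5 lay on 2L, and 9 had the higher value in replicate 1. Their widths ran from 2372 to 2847 bp, although members could be up to 3999 bp wide.

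The 3 highest members that neither replicate list held were very short. They lay on 2L at 21494388 to 21495388 (combined value 3.08), on 3R at 23999611 to 24000611 (3.08) and on 2R at 1157935 to 1158935 (2.91). Each was 1001 bp wide, the smallest width in the combined list. The one on 3R was the highest member of its arm and stood between gaps of 209436 and 141861 bp. Neither replicate list gives a value at these places, so their combined values could not be set beside replicate values.

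Across the 390 members found in both replicates, the replicate values went together, and replicate 1 was usually the higher. Their Spearman correlation was 0.899 and their Pearson correlation 0.932, across clusters of 2 libraries and so without a p. For edge, crowded and all combined clusters found in both, the Spearman correlation was 0.869, 0.858 and 0.909. The Pearson correlation was 0.934, 0.925 and 0.919 in the same order, so the members were near the background. Replicate 1 had the higher log2 enrichment at 299 of the 390 members (76.7%), against 73.3% of edge, 72.4% of crowded and 68.0% of all combined clusters found in both. The mean difference of replicate 1 minus replicate 2 was 0.22 ± 0.29 (SD over members). It was 0.11 ± 0.18 for the 85 members with a mean replicate value under 0.5 and 0.45 ± 0.28 for the 56 with a mean of 2 or more, where replicate 1 was higher at 51. Edge and crowded clusters of that highest range had mean differences of 0.40 ± 0.27 and 0.43 ± 0.33, close to the members' value.

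Wide isolated clusters had smaller differences. These were the 153 clusters of 4000 bp or more with both gaps of at least 10000 bp. The 152 found in both replicates had a mean difference of 0.03 ± 0.28, with replicate 1 higher at 76 of them. In the range of mean values of 2 or more, 28 such clusters had a mean difference of 0.15 ± 0.38. Among strong clusters the excess of replicate 1 was thus larger at narrow than at wide ones in these 2 libraries, a difference that was not tested.

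**Figure D3:**
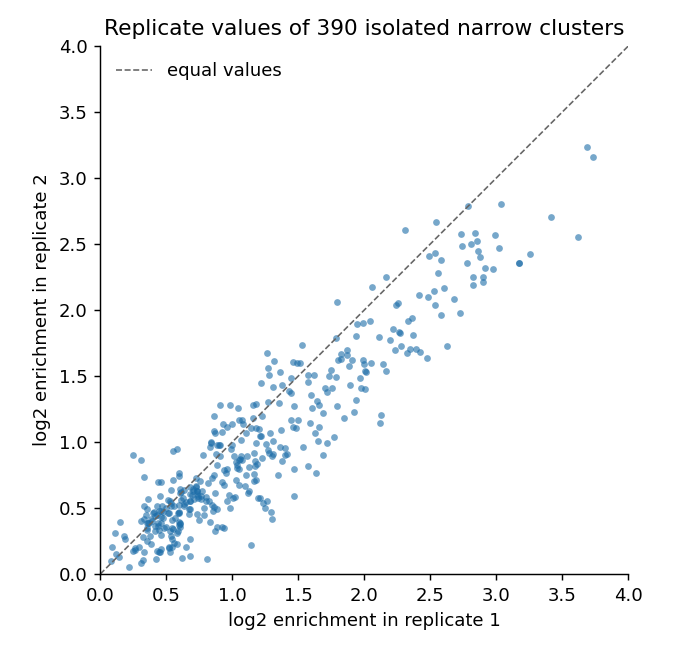
Log2 enrichment in replicate 1 (horizontal) and replicate 2 (vertical) for the 390 isolated narrow clusters found in both, with 1 point for each cluster and a dashed line where values are equal. Points lie along the line at low values and mostly below it at high ones, where replicate 1 was higher at 51 of the 56 members with a mean of 2 or more.

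Single members departed from that pattern in each direction. After the 2R member described above, replicate 1 exceeded replicate 2 most on 2L at 15910831 to 15913057, with 2.12 against 1.14, and on 3L at 11288659 to 11290756, with 1.14 against 0.22. Replicate 2 exceeded replicate 1 most on 2L at 22002848 to 22004992, with 0.90 against 0.25. The next were on 2L at 3207774 to 3210057, with 0.86 against 0.31, and on 2R at 1382178 to 1384404, with 1.67 against 1.26. The clusters compared at these places also differed in width. In replicates 1 and 2 they were 1740 and 2366 bp wide at 22002848, and 1741 and 2251 bp at 3207774. On 2R the widths were closer, at 2153 and 2247 bp. The 2L member at 22002848 was the right-hand neighbour of the member on 2L at 21898255 described above, which had the higher value in replicate 1, so replicate order differed between adjacent clusters.

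The replicates placed the edges of the members close to those of the combined list. Every member that met a replicate list met exactly 1 cluster there, 465 in replicate 1 and 428 in replicate 2. Counted as replicate minus combined position, the first base of the replicate 1 cluster was displaced by a median of 4 bp (quartiles -12 and 32 bp) and the last base by -8 bp (-55 and 9 bp). Replicate 2 clusters were slightly shorter, with medians of 29 bp at the first base (10 and 63 bp) and -30 bp at the last (-65.25 and -10 bp). The centres were displaced by medians of -2 and -0.75 bp. Between the replicates, the centres lay within 100 bp of each other at 318 of 390 members (81.5%). The median share of joint length held in common was 97.6% for replicate 1 and 96.5% for replicate 2.

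The widest member was an exception to these close edges. It lay on 3R at 2281012 to 2285010 and was 3999 bp wide, with a combined value of 0.52 and replicate values of 0.68 and 0.55. Its replicate 2 cluster was 3962 bp wide, while the replicate 1 cluster covered only 2142 bp. It was also the member nearest to the width limit. The nearest cluster outside that limit with both gaps wide lay on 2L at 22561056 to 22565064, at 4009 bp and 1.26. The 27 members of 3500 to 3999 bp had a median of 1.10 and the 25 such clusters of 4000 to 4499 bp 1.26, and all were in both replicates.

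**Figure D4:**
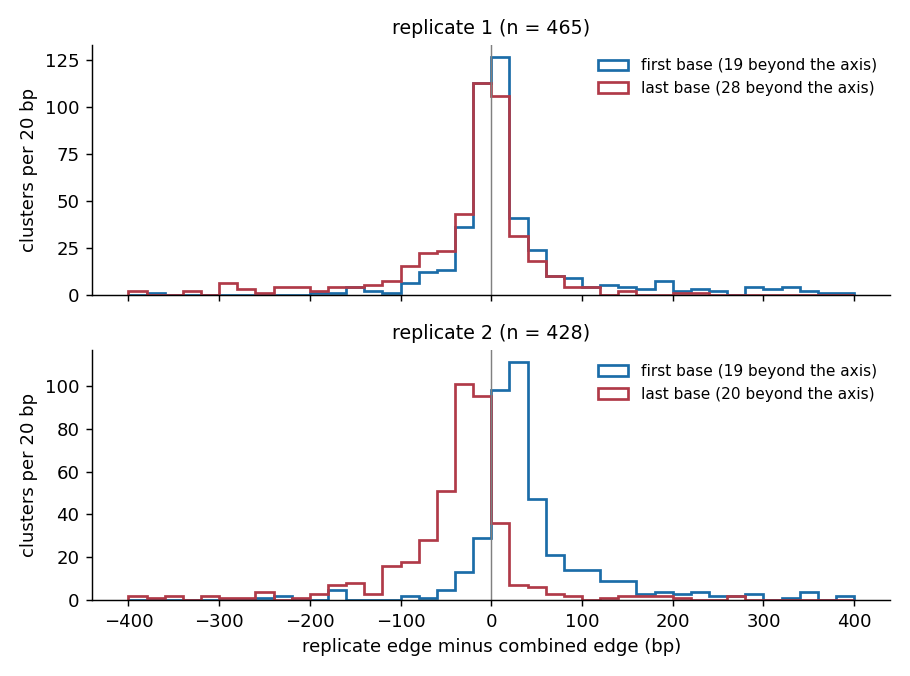
Position of the first (blue) and last (red) base of the replicate cluster minus that of the combined cluster, in bp, as numbers of isolated narrow clusters per 20 bp, for replicate 1 (n = 465, top) and replicate 2 (n = 428, bottom). Both edges centre near 0 in replicate 1, while in replicate 2 the starts are shifted by a median of 29 bp and the ends by -30 bp, toward the middle of the cluster.

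Isolation held in the replicate lists at nearly every member found there. All 465 members found in replicate 1 and all 428 found in replicate 2 were under 4000 bp there. The whole rule was met by 460 (98.9%) and 426 (99.5%) of them, which is 83.0% and 76.9% of all 554 members. The combined list was made from the same libraries, so this is not independent of the choice of members. It was not set beside other classes. Among the members found in a replicate, those that broke the rule there numbered 5 in replicate 1 and 2 in replicate 2. On 2L at 3631134 to 3634003, for example, a member with a combined value of 2.00 had another replicate 1 cluster 5093 bp to its right. On 2L at 4030319 to 4032512, one with 0.93 had another only 985 bp to its left. Members closest to the limit of 10000 bp are given here beside clusters just outside it. Those with a smaller gap of 10000 to 10999 bp numbered 62, with a median combined value of 0.52 and 39 found in both replicates. Narrow clusters with a smaller gap of 9000 to 9999 bp numbered 64, with a median of 0.43 and also 39 in both. The pair nearest to the limit lay on 2L. The member at 6023414 to 6024591 had a smaller gap of 10003 bp and a value of 0.52, and the cluster at 6011227 to 6013410 had 9993 bp and 0.84.

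Applied to each replicate list alone, the rule chose clusters without regard to the other library. It gave 613 isolated narrow clusters in replicate 1 and 535 in replicate 2 (574 ± 55.2, SD, n = 2). Replicate 2 held a cluster at 527 of the 613 (86.0%, exact interval 83.0 to 88.6%), against 92.2% for all clusters of replicate 1. Replicate 1 held one at 492 of the 535 (92.0%, 89.3 to 94.1%), against 89.9% for all clusters of replicate 2. The share was thus below the background in one direction and above it in the other, with a mean of 89.0 ± 4.24%. Edge clusters chosen in the same way were found at 91.9% from replicate 1 and 88.4% from replicate 2 (90.2 ± 2.48%), and crowded clusters at 90.6% and 81.7% (86.2 ± 6.30%). Isolated clusters thus had the lowest share of the 3 classes from replicate 1 and the highest from replicate 2, and their mean lay between those of edge and crowded clusters. Median log2 enrichment kept one order in both lists, being 0.86 and 0.78 for isolated clusters of replicates 1 and 2, 0.78 and 0.68 for edge and 0.72 and 0.63 for crowded ones.

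Where the other library lacked a cluster, the isolated cluster was typically weaker and shorter. The 86 of replicate 1 not found in replicate 2 had a median value of 0.35 in that list and were typically 1772 bp wide, and for the 43 of replicate 2 not found in replicate 1 these medians were 0.44 and 1830 bp. The highest not found reached 1.41 in replicate 1 and 1.77 in replicate 2. Those found had medians of 1.00 and 0.84. Both libraries met the whole rule at 442 places, which is 72.1% of the isolated clusters of replicate 1 and 82.6% of those of replicate 2. Of the isolated clusters of a replicate that were not members, 111 in replicate 1 and 88 in replicate 2 lay at combined clusters that were narrow but had a neighbour within 10000 bp. A further 38 and 20 lay at combined clusters of 4000 bp or more, and 4 and 1 met no combined cluster.

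Isolated narrow clusters were found along all 4 arms. The members numbered 143 on 2L, 119 on 2R, 153 on 3L and 139 on 3R, or 6.21, 5.63, 6.23 and 4.98 per Mb. In the replicate lists the rule gave 6.65 ± 0.43 per Mb on 2L, 6.03 ± 0.519 on 3L, 5.77 ± 0.936 on 2R and 5.41 ± 0.456 on 3R (SD, n = 2). In each replicate 2L had the highest number per Mb and 3R the lowest, but the middle pair changed places between the replicates. Members made up 22.4% of the narrow clusters on 2L, 20.9% on 3L, 16.1% on 3R and 15.5% on 2R. Median combined values were 0.80 on 2L (interval 0.62 to 0.92), 0.62 on 2R (0.44 to 0.83), 0.62 on 3R (0.45 to 0.74) and 0.49 on 3L (0.39 to 0.61). In each replicate 2L had the highest median of the arms (0.98 and 0.89) and 3L the lowest (0.73 and 0.67). On 2L 77.6% of members were in both replicates and on 3L 64.1%.

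Each of the 95 full bins of 1 Mb held a member. There was a median of 5 members (quartiles 4 and 7), and 10 bins held 10 or more. The fullest was 2L from 3000001 to 4000000, with 16 members among 41 combined clusters. The rule gave 16 and 12 there in replicates 1 and 2. Next were 2R from 10000001 to 11000000, with 13 members among 53 clusters, and 3R from 12000001 to 13000000, with 12 among 66. Bins of low, middle and high cluster density, with members counted in the density, held means of 5.81, 5.97 and 5.50 members. With the members left out of the density, the numbers of members and of other combined clusters had a Spearman correlation of -0.317 over bins. The correlation between the numbers of the replicates over bins was 0.764 (Spearman) and 0.766 (Pearson). This is a correlation across bins of 2 libraries.

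The gaps on the left and right of a member differed in size to varying degrees. The smaller gap had a median of 19081 bp and the larger one 48588 bp, and the median ratio of the larger to the smaller was 1.98. This ratio cannot fall below 1, and it was not set beside that of other clusters. Both gaps reached 20000 bp at 259 members (46.8%), 50000 bp at 64 (11.6%) and 100000 bp at 10 (1.81%). At least 1 gap of 50000 bp or more bordered 272 members. Within 100000 bp of its centre a member had a median of 7 other combined clusters, against 10 for edge and 13 for crowded clusters, an order the rule itself favours.

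**Figure D5:**
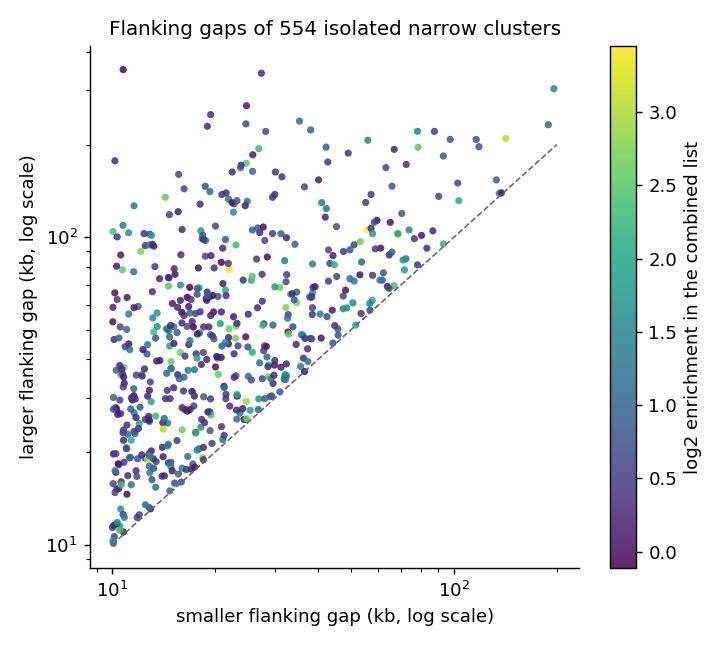
Smaller (horizontal) and larger (vertical) flanking gap in kb, both on log scales, for the 554 isolated narrow clusters, with 1 point for each cluster coloured by log2 enrichment in the combined list and a dashed line where the gaps are equal. High and low values are mixed over the whole range of gaps.

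Distance to the neighbours and enrichment were weakly related at most. The Spearman correlation of log2 enrichment with the smaller gap was 0.111 and with the larger gap 0.003 over members. In the quartile with the largest smaller gaps, from 31365 to 196112 bp, the median was 0.76 and 75.5% of members were in both replicates. In the other quartiles it was 0.55, 0.55 and 0.59, with 69.1%, 68.1% and 68.8% in both. A member scored above both of its neighbours at 156 places, below both at 230 and between them at 168. These numbers were not set beside those of other clusters, so nothing is read from them about the members. Of the 1108 neighbours, counted once for each side, 305 (27.5%) were 4000 bp or wider, where 31.4% of all clusters on the arms were.

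The most isolated members included both strong and unrepeated clusters. The largest smaller gap belonged to a member on 2L at 14688102 to 14690642, between gaps of 196112 and 304051 bp, with a combined value of 1.45 and replicate values of 1.65 and 1.28. Next came 2L at 1419288 to 1421491, between 232112 and 188889 bp, with 1.05 and replicate values of 0.96 and 1.12. The third was the 3R member of 1001 bp named above, followed by 2R at 19101010 to 19102361, with 0.13 and no cluster in either replicate. The fifth was on 2L at 15910831 to 15913057, with a combined value of 1.60 and the replicate values of 2.12 and 1.14 given above. Among these 5 the 3 on 2L were in both replicates and between 2204 and 2541 bp wide, and the other 2, of 1001 and 1352 bp, were in neither.

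Of the 554 members, 335 (60.5%) had another member as a direct neighbour. The rule favours this, since each neighbour of a member already has a gap of at least 10000 bp on the shared side, and nothing is read from the share. In all, 163 stood in runs of 3 or more. There were 86 runs of 2, 31 of 3, 11 of 4, 4 of 5 and 1 of 6. The run of 6 lay on 3L from 18131794 to 18392681 with gaps between members of 12686 to 81282 bp. Its combined values ran, from left to right, 0.10, 0.23, 1.33, 2.18, 0.47 and 1.53. The members at 1.33, 2.18 and 1.53 were in both replicates, those at 0.10 and 0.23 in replicate 1 alone and the one at 0.47 in replicate 2 alone, so that the run was complete in neither library.

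Members included most of the clusters that the authors named as depleted. The combined list named 23 clusters as depleted, 0.395% of its total, and 13 of the 23 were members, which is 56.5% of the depleted clusters and 2.35% of the members. Of the remaining 10, 7 were edge clusters, 2 were crowded and 1 lay on X. The 13 were 1656 to 1876 bp wide, with log2 values from -0.11 to -0.003. Clusters on the arms in that range of widths numbered 261, and 66 of them (25.3%) were members. In replicate 1, 8 of the 13 places had a cluster, all named as enriched and with log2 values of 0.08 to 0.30. In replicate 2 only 1 had a cluster, on 2L at 5402810 to 5404685, with 0.10, where replicate 1 had 0.08 and the combined value was -0.003. The lowest value, -0.11, belonged to 3L at 14571391 to 14573086, which had no cluster in either replicate. The members with negative values were thus not negative in any replicate list that held them. A combined value below both replicate values was not limited to these members. It occurred at 84 of the 390 members found in both replicates, and at 1733 of the 4301 such clusters of the whole combined list.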

How the data were processed

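Chromatin immunoprecipitation libraries of Clone 8 cells were deposited as lists of clusters. The submitters' processing notes name Bowtie 0.12.7, and the positions follow FlyBase release 5, per the file headers. How clusters were called, with which thresholds and input, and how replicates were pooled is not given in the sources used here. Scores deposited by the authors were taken as log2, because differences between repeated scores matched logarithms of ratios of whole numbers up to 14 within 1e-08 more often in base 2 (167 of 8128 pairs in the combined list) than in base 10 (11) or natural logarithms (0).

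Members, classes and overlaps with replicate clusters (1 bp or more) were computed with Python 3.11.15, numpy 2.4.6, pandas 2.3.3 and scipy 1.17.1. The rule and the overlaps were tested on simulated lists with known answers. Gaps were measured to any combined cluster, depleted ones included. Binomial intervals are exact (95%). No test was run, since the list that defined the members pools both replicates. The members and lists were chosen with earlier results of these data known. Named clusters were the 10 highest in both replicates, the highest of each arm, the 5 with the largest smaller gap, the 3 highest in neither replicate, the widest and narrowest, the 3 largest replicate differences each way, those under 0, the longest run and those nearest to the limits. The fullest bins and the 2 examples of lost isolation were chosen after their values were seen. Other widths, gaps and overlaps were tried as alternatives. Sequence content was not analysed.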

Additional observations from a re-analysis of the deposited data

How the results depend on the processing

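Of 43 alternatives over 8 results, 36 stayed within the spread set for their result and 7 did not. The 36 include those that left out a replicate. For shares in both or neither replicate and the median combined value, the spread was the interval over clusters given above. It was 1 SD for means of the 2 replicates, and a chosen range of 369 to 831 for the number of members. With a minimum gap of 5000 bp the members numbered 965, and with 20000 bp 259, where the median log2 enrichment was 0.69. A maximum width of 3000 bp gave 66.3% in both replicates and a median of 0.54. With combined clusters under 1301 bp removed before gaps were measured, 75.6% of members were in both replicates and 4.88% in neither. Reciprocal overlap of 50% changed neither share. Leaving out a replicate gave 77.3 to 83.9% of members present, 86.0 to 92.0% of isolated clusters found in the other library and medians of 0.77 to 0.86. With 2 replicates these values always lie within 1 SD of their mean, so they say nothing of stability. For the correlation of replicate values, the spread was a 95% interval by Fisher's transformation over clusters. No paired analysis was possible because input values were not analysed here, which leaves 1 group. Depth is unknown, so weak members missing from a list may be undetected there and not absent.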

Other observations

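Some of the narrowest members had exactly the same score as other clusters elsewhere. Of the 35 members under 1301 bp, 15 (42.9%) shared their log2 enrichment to every deposited digit with another combined cluster, against 20 of the 519 wider members (3.85%). Over all combined clusters the shares were 23.2% of 405 and 3.86% of 5421. The members on 2L at 21494388 and on 3R at 23999611, both 1001 bp wide, had the same value of 3.08, which 4 combined clusters carried. Of the 35, 6 were exactly 1001 bp wide, and 5 had a log2 enrichment over 2.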
